A study of Mus musculus with 12 samples.

Results

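The response of Gli1Het neural stem cells (NSCs) to the cuprizone diet was taken as the contrast between the 3 libraries labelled Gli1-Het cuprizone diet and the 3 labelled Gli1-Het control diet, 6 of the 12 RNA libraries of the series. The other 6 come from Gli1Null NSCs on the same diets and are described only beside the Gli1Het values, although they share the fit and so the estimate of spread behind each call. All 6 libraries were made from C57BL/6 mice of the genotype Gli1CreERT2/+;RCEfx/fx that were given 4 injections of 5 mg tamoxifen on alternate days from 10 weeks of age. From a week after the last injection the cuprizone group ate 0.2% cuprizone for 3 weeks and the control group ate normal chow. In this line the CreERT2 recombinase is knocked into Gli1, so mice of both diets had a single working copy of Gli1, and tamoxifen switched on the GFP of the RCE reporter in cells that had expressed Gli1 and in the cells they gave rise to. GFP-positive cells of the subventricular zone (SVZ) were sorted by FACS, and each library pooled the SVZ of 2 brains, from a male and a female mouse. A library is therefore a pool of mice, the sort carries labelled progeny along with the stem cells, and every replicate averages over both sexes.

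Neural stem cells of the SVZ line the lateral ventricle, divide slowly and give rise to transit amplifying cells and then to neuroblasts that migrate to the olfactory bulb. Cuprizone chelates copper, oligodendrocytes die of it and the corpus callosum beside the SVZ loses its myelin, and stem cells that express Gli1, an effector of Hedgehog signalling, are known to be recruited to such lesions. The integrated stress response, a program that cells switch on when amino acids run short, proteins misfold or mitochondria fail, works through the transcription factors ATF4 and CHOP and raises genes of amino acid uptake and synthesis.

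Counts in genes ranged from 13752801 to 27729459 in the control libraries and from 14059223 to 29879800 in the cuprizone libraries, and neither this total nor the share of mitochondrial transcripts separated the diets (exact two-sided permutation tests, p = 1 and p = 0.2, where 3 libraries against 3 cannot go below 0.1). Mitochondrial transcripts took 0.586% to 0.643% of the counts in the control libraries and 0.596%, 0.950% and 0.656% in cuprizone replicates 1, 2 and 3. The input was less even. Among all samples of the series, the study lists the least RNA and the lowest RNA integrity for the first cuprizone replicate of these cells. The study also reports fewer sorted cells on cuprizone than on control diet. The part of this input in the differences among libraries was not tested. Sox2, the transcription factor that keeps NSCs undifferentiated, was at 349.9, 382 and 343 CPM in the control libraries and 379, 395 and 436 CPM in cuprizone replicates 1, 2 and 3. Of the 14 markers of NSCs, 14 passed the filter on low counts in these sorted cells. So did all 20 neuroblast, 14 myelin and 14 microglia markers, so passing it is not particular to NSC markers. Gli1 itself was at 8.65, 18.1 and 17.4 CPM in the control libraries and 21.1, 0.819 and 3.799 CPM in cuprizone replicates 1, 2 and 3. The level in the library labelled cuprizone replicate 2 rests on 25 counts (95% Poisson interval 0.530 to 1.21 CPM, which covers counting error only, since PCR copies are not independent molecules) and lies under every control library, as does that of replicate 3. The 6 Gli1Null libraries held 0.294 to 0.7605 CPM. A Gli1Het label would give 1 working copy of the gene, so this library is called by its label throughout, and most counts over a gene list are also given without it. The log2 fold change of Gli1 over all 3 libraries was -0.80 (standard error 0.768, edgeR adjusted p = 0.435).

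Of 17623 genes that passed the filter and were tested with edgeR (quasi-likelihood, a single fit to all 12 libraries), 5995 were called at a Benjamini-Hochberg adjusted p under 0.05, which is 34.0%. Of these, 3306 were higher (18.8%) and 2689 were lower (15.3%) on cuprizone, 1689 and 1111 of them by more than 2-fold. The counts over gene lists below stand against these shares of 18.8% and 15.3%. The cuprizone and control libraries did not overlap for 41.9% of all genes tested, with cuprizone above in 21.1% and below in 20.8%. CPM, the unit of all levels, is the number of counts of a gene for each 1000000 counts in genes after TMM scaling, and where 3 levels are set against 3 others, control replicates 1, 2 and 3 come first and cuprizone replicates 1, 2 and 3 follow. Standard errors and adjusted p are those of this fit, and the p-values rest on the spread among pools of mice. The median log2 fold change of all genes tested was 0.02. The number of calls rests on the fit, as the bar chart of calls by fit shows. DESeq2 on all libraries called 3691 higher and 3239 lower. The 6 Gli1Het libraries alone, which hold the uneven cuprizone group without the more even Gli1Null libraries, gave 841 higher and 120 lower with edgeR and 2145 and 1396 with DESeq2. Without cuprizone replicate 1, edgeR called 8496 genes, without the library labelled replicate 2 it called 4846 and without replicate 3 it called 3834. Without control replicates 1, 2 and 3 it called 4103, 3173 and 4595. Of the 3306 genes called higher, 2406 were also called higher without the library labelled replicate 2, and so were 1969 of the 2689 lower ones in their direction.

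**Figure D1:**
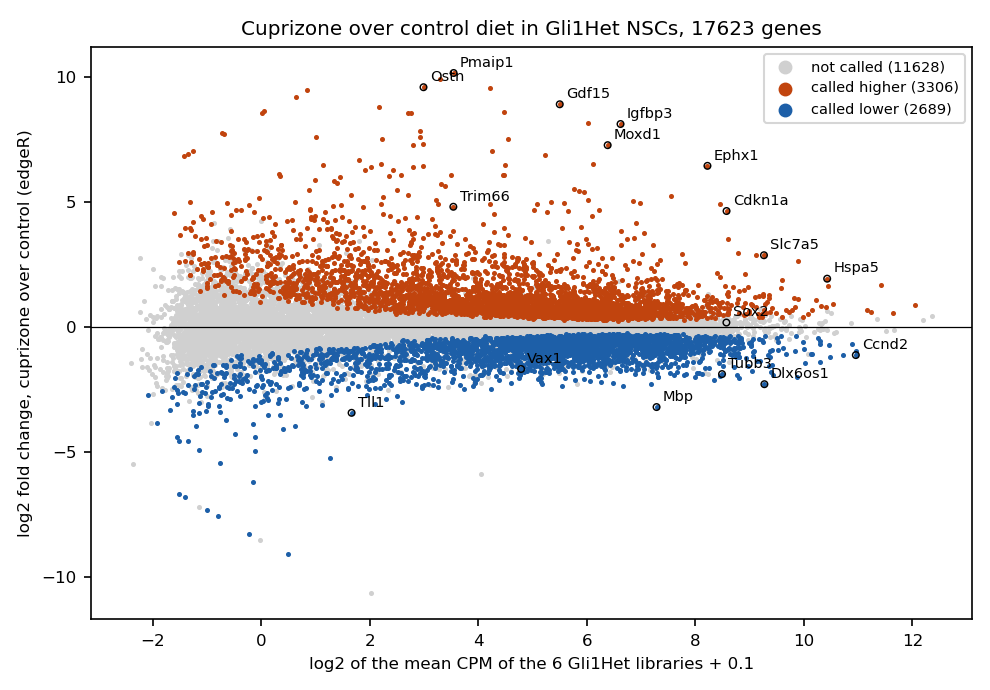
Log2 fold change of cuprizone over control diet (edgeR, vertical axis) against the log2 of the mean CPM of the 6 Gli1Het libraries (horizontal axis), each point 1 of 17623 genes. Called genes are red where higher (3306) and blue where lower (2689). The fitted fold of genes with hardly a control count, such as Ostn and Pmaip1, depends on the prior count, and 652 of the rises and 196 of the falls pass 4-fold.

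**Figure D2:**
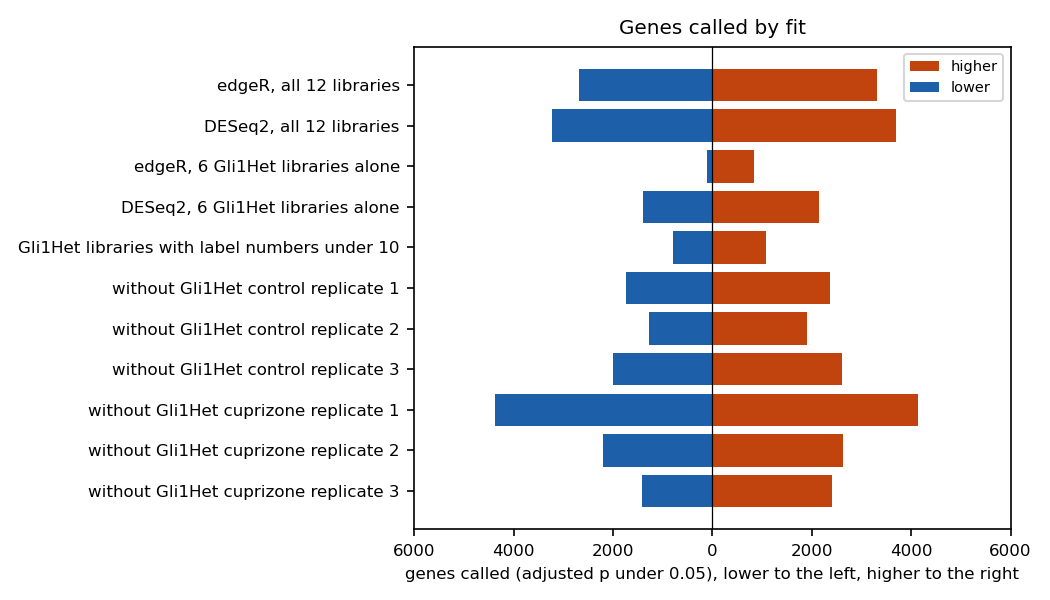
Genes called higher (to the right) and lower (to the left) on cuprizone at an adjusted p under 0.05 in the fit of all 12 libraries, with DESeq2, with the 6 Gli1Het libraries alone, with the 4 Gli1Het libraries whose sample label number is under 10, and without each Gli1Het library. Leaving out cuprizone replicate 1 raised the number to 8496, and the 6 libraries alone with edgeR gave the fewest, 961.

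The 3 cuprizone libraries moved the same way but by different amounts. On the log2 CPM of all genes tested, the mean distance between 2 control libraries was 91.4 and that between 2 cuprizone libraries was 129, a ratio of 1.41. Cuprizone replicate 1 lay 116 from the control libraries on average, replicate 3 lay 150.1 and the library labelled replicate 2 lay 201. Of the variance, 64.0% lay on the first principal component, which ordered the libraries in the same way, with scores of -79.3, -63.4 and -47.4 in control replicates 1, 2 and 3 and of 0.692, 129 and 60.8 in cuprizone replicates 1, 2 and 3. Per gene, the median SD of log2 CPM was 0.378 over the cuprizone libraries and 0.221 over the control libraries. Against the mean of the controls, the median log2 difference of the genes called higher was 0.64 in replicate 1, 1.26 in the library labelled replicate 2 and 1.03 in replicate 3, and that of the genes called lower was -0.47, -1.36 and -0.88. The largest departure was in the library labelled replicate 2 for 2272 of the 3306 higher and 2160 of the 2689 lower genes, in replicate 3 for 862 and 407, and in replicate 1 for 172 and 122. Even in replicate 1, 3269 of the 3306 higher genes and all 2689 lower ones lay on the side of their call. These medians describe genes that were chosen on the same libraries. In the medians of some gene groups the 3 libraries moved alike, and in others the library labelled replicate 2 moved most and replicate 1 least, as the plot of list medians shows. Further lists followed neither order, such as the Hedgehog pathway with medians of 0.57 in replicate 1, -0.13 in the library labelled replicate 2 and 0.67 in replicate 3 and the endothelial markers with -2.55 in replicate 1, 0.14 in the library labelled replicate 2 and -1.42 in replicate 3.

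**Figure D3:**
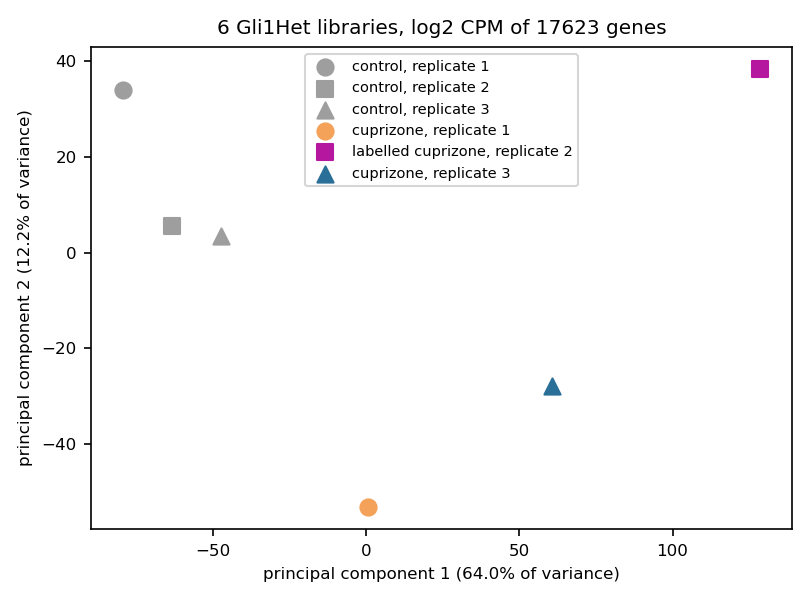
The 6 Gli1Het libraries on the first 2 principal components of the log2 CPM of 17623 genes. Control libraries are grey and lie at -79.3 to -47.4 on the first component, and cuprizone replicate 1 (orange circle), replicate 3 (blue triangle) and the library labelled replicate 2 (purple square) lie at 0.692, 60.8 and 129.

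**Figure D4:**
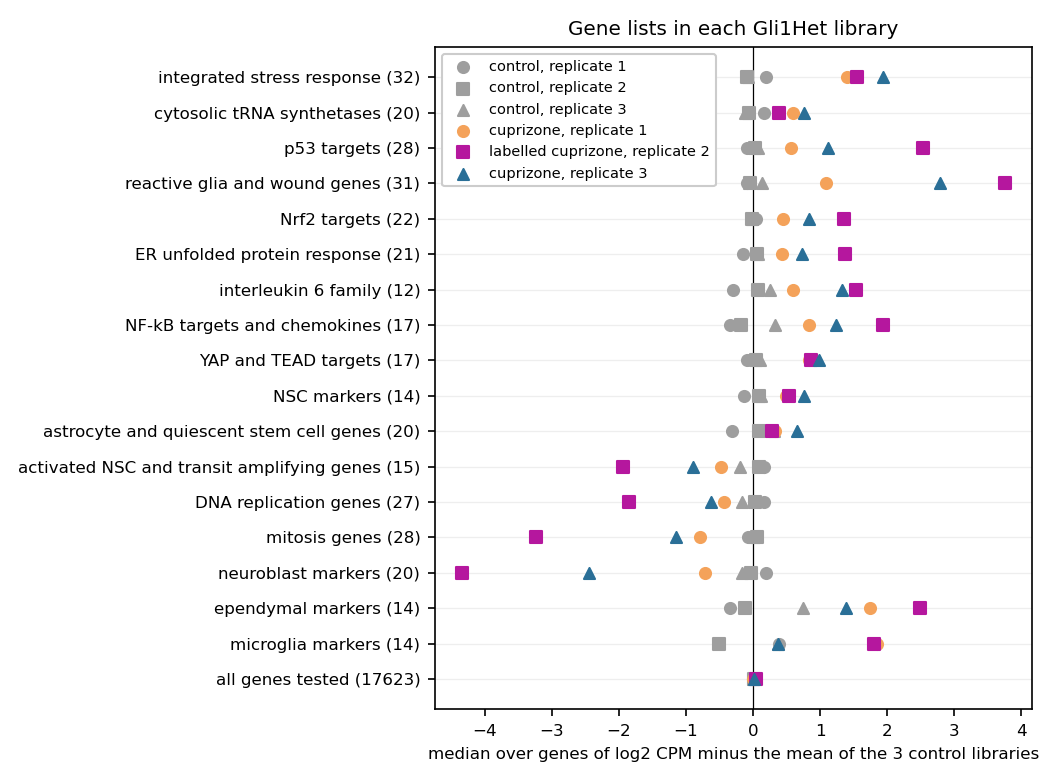
Median over the tested members of each gene list (number in brackets) of log2 CPM minus the mean of the 3 control libraries, with 1 symbol for each Gli1Het library. The stress response list lies at 1.40 to 1.93 in all 3 cuprizone libraries, while the p53, wound, mitosis and neuroblast lists spread from replicate 1 to the library labelled replicate 2.

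Genes of the integrated stress response rose together in all 3 cuprizone libraries. Of 33 genes of this response, 32 were tested, 30 were higher and 0 were lower, with a median log2 fold change of 1.73 against 0.02 for all genes tested, and Fgf21 was under the filter. The 2 that did not pass, named here because they are the exceptions, were Vldlr, a lipoprotein receptor, and Aldh1l2, a mitochondrial enzyme of folate metabolism. The list median was 1.40 in replicate 1, 1.55 in the library labelled replicate 2 and 1.93 in replicate 3. These 3 medians lay close together, and 30 of the 32 members lay above the controls without overlap, where 21.1% of all genes tested did. Gene by gene the libraries were no closer than usual. The median range of log2 CPM over the 3 cuprizone libraries was 0.784 for the list and 0.724 for all genes tested. Slc7a5, the transporter of large neutral amino acids (chromosome 8, 121881150 to 121907694 on the minus strand of mm10), was at 176, 137 and 132 CPM in the control libraries and 1068, 902 and 1277 CPM in cuprizone replicates 1, 2 and 3 (log2 fold change 2.87, standard error 0.18, edgeR adjusted p = 1.11e-05). Its partner chain Slc3a2 was at 289, 253 and 259 CPM in the control libraries and 1198, 1961 and 1768 CPM in cuprizone replicates 1, 2 and 3 (log2 fold change 2.62, standard error 0.192, edgeR adjusted p = 2.49e-05). Both chains lay above every control in every cuprizone library. Slc7a11, which exchanges glutamate for cystine and so feeds glutathione synthesis, was at 33.6, 45.3 and 54.1 CPM in the control libraries and 234, 320 and 293 CPM in cuprizone replicates 1, 2 and 3 (log2 fold change 2.67, standard error 0.205, edgeR adjusted p = 3.17e-05). Atf5, a transcription factor of the response, was at 15.2, 9.896 and 10.6 CPM in the control libraries and 54.1, 66.7 and 78.1 CPM in cuprizone replicates 1, 2 and 3 (log2 fold change 2.49, standard error 0.1801, edgeR adjusted p = 2.49e-05). Nupr1, a small nuclear protein of stressed cells, was at 9.24, 4.78 and 4.88 CPM in the control libraries and 41.8, 43.9 and 42.6 CPM in cuprizone replicates 1, 2 and 3 and so differed by little among the cuprizone libraries (log2 fold change 2.78, standard error 0.249, edgeR adjusted p = 0.000101). Not every member was this even. Gdf15, a hormone that stressed cells secrete, was at 0.291, 0.125 and 0.177 CPM in the control libraries and 11.4, 213 and 46.3 CPM in cuprizone replicates 1, 2 and 3 (log2 fold change 8.91, standard error 1.23, edgeR adjusted p = 0.000961). Its level was highest in the library labelled replicate 2 and lowest in replicate 1, the order of Cdkn1a and Phlda3 below. The count of 30 changed little when 1 library was left out. It was 30, 30 and 27 without cuprizone replicates 1, 2 and 3, and 29, 27 and 28 without the control replicates. With the 6 Gli1Het libraries alone it was 20 with edgeR and 29 with DESeq2.

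The cytosolic tRNA synthetases, which load amino acids onto tRNA and are targets of the same program, rose with it. Of 20, 13 were higher and 0 were lower, with a median log2 fold change of 0.58. Eprs, the synthetase for glutamate and proline, was at 236, 233 and 227 CPM in the control libraries and 513, 554 and 577 CPM in cuprizone replicates 1, 2 and 3 (log2 fold change 1.24, standard error 0.108, edgeR adjusted p = 7.98e-05). Aars, the alanine enzyme, was at 256, 228 and 209 CPM in the control libraries and 401, 460.3 and 491 CPM in cuprizone replicates 1, 2 and 3 (log2 fold change 0.97, standard error 0.116, edgeR adjusted p = 0.000533), and Wars, the tryptophan enzyme, had a log2 fold change of 1.33 (edgeR adjusted p = 0.000709). The changes were smaller than those of the transporters and again similar in the 3 cuprizone libraries, with list medians of 0.60 in replicate 1, 0.39 in the library labelled replicate 2 and 0.75 in replicate 3.

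Promoters of 27 of the 30 stress response genes that rose were found in the RefSeq table of the GRCm38.p6 build, which is mm10. They were searched on both strands from 250 bases before to 50 after the start for TGATGNAA, the C/EBP-ATF response element through which ATF4 and CHOP act. Matches to the AP-1 and antioxidant letters below can coincide, but none to TGATGNAA can start at the same base as theirs. Of these 27 genes, 8 held it (29.6%), Asns, Chac1, Nupr1, Pck2, Pycr1, Slc1a4, Slc7a11 and Trib3, against 4.51% of the 27025 genes and 3.97% of the 32851 promoters of the table. The AP-1 letters TGANTCA were in 2 of the 27 and in 8.97% of all genes, and the antioxidant response element TGACNNNGC was in 9 of the 27 and in 14.0% of all genes. A match describes letters and not a bound site. Since 30 of the 32 members tested rose, these shares describe the list as it was chosen, and the part of the letters in the rise was not tested. The 250 bases before the start are shown for the 4 of these genes with the smallest adjusted p and a match wholly within them, so that the letters can be seen beside the rise of each gene, with the matched letters on either strand in capitals. Slc7a11 holds the motif on both strands, Asns on the strand shown and Nupr1 and Chac1 on the other. Slc7a11 and Nupr1 are described above, and the remaining pair was taken for its letters after its values were seen. Asns, which makes asparagine, was at 52.3, 25.9 and 28.8 CPM in the control libraries and 163, 162 and 210.1 CPM in cuprizone replicates 1, 2 and 3 (log2 fold change 2.33, standard error 0.254, edgeR adjusted p = 0.000360). Chac1, which degrades glutathione, was at 6.33, 3.83 and 2.02 CPM in the control libraries and 22.2, 41.5 and 50.02 CPM in cuprizone replicates 1, 2 and 3 (log2 fold change 3.26, standard error 0.548, edgeR adjusted p = 0.00224). Both lay above the controls in every cuprizone library.
Slc7a11, chr3:50443614-50443863, minus strand: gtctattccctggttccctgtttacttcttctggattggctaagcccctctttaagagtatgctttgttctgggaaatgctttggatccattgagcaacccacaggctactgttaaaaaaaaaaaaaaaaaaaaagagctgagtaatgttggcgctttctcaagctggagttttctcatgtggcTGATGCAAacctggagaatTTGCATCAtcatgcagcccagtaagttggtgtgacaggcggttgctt
Nupr1, chr7:126625471-126625720, minus strand: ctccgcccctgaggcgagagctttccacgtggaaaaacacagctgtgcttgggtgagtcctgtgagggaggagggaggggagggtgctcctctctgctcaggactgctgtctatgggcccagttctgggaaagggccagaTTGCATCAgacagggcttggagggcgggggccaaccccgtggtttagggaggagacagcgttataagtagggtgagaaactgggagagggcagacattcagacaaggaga
Asns, chr6:7693210-7693459, minus strand: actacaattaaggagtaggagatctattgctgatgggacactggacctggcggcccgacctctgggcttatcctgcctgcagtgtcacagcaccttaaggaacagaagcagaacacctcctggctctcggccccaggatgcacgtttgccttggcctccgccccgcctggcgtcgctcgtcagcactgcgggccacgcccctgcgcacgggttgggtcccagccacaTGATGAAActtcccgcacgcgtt
Chac1, chr2:119350992-119351241, plus strand: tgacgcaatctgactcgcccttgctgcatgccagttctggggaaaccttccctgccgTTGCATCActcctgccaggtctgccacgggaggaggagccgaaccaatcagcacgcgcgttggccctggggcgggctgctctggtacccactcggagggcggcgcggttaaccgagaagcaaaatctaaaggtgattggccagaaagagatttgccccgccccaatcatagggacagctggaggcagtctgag

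Genes with the smallest adjusted p and the most even responders lay mostly outside the lists. Trim66, a chromatin protein of the TRIM family, was at 0.873, 0.707 and 0.813 CPM in the control libraries and 26.2, 16.7 and 23.99 CPM in cuprizone replicates 1, 2 and 3 (log2 fold change 4.80, standard error 0.246, edgeR adjusted p = 4.29e-06). Moxd1, a relative of the monooxygenase that makes noradrenaline, was at 1.75, 1.25 and 0.4596 CPM in the control libraries and 138, 192 and 167 CPM in cuprizone replicates 1, 2 and 3 (log2 fold change 7.27, standard error 0.449, edgeR adjusted p = 1.11e-05). Cyb5r1, a reductase of cytochrome b5, was at 19.1, 12.6 and 13.2 CPM in the control libraries and 110.3, 141 and 143 CPM in cuprizone replicates 1, 2 and 3 (log2 fold change 3.14, standard error 0.189, edgeR adjusted p = 1.11e-05). In each of these the lowest cuprizone library was several times above the highest control library. Rhbdd1, a rhomboid protease, had a log2 fold change of 2.47 (edgeR adjusted p = 1.97e-05). Ostn, which encodes the secreted peptide osteocrin, had 1 count over the 3 control libraries and 1006 over the 3 cuprizone libraries, a ratio of the summed CPM of 1106 (exact 95% counting interval 198 to 43725), and its 3 cuprizone libraries were at 14.1, 19.7 and 13.3 CPM. Mocs1, an enzyme of molybdenum cofactor synthesis, was at 12.8, 14.8 and 16.5 against 31.6, 30.5 and 31.02 CPM (log2 fold change 1.08), with cuprizone libraries that were nearly equal. Among the falls, Vax1, a homeobox factor of the ventral forebrain, was at 44.1, 41.3 and 40.7 CPM in the control libraries and 17.96, 10.1 and 11.1 CPM in cuprizone replicates 1, 2 and 3 (log2 fold change -1.69, standard error 0.211, edgeR adjusted p = 0.000622). Mapk8, which encodes the kinase JNK1, was at 21.5, 22.5 and 20.4 against 9.76, 8.28 and 9.78 CPM (log2 fold change -1.21, standard error 0.147, edgeR adjusted p = 0.000544). Lin7a, a scaffold protein of cell junctions, was at 11.6, 11.1 and 12.9 against 3.64, 2.16 and 1.48 CPM (log2 fold change -2.29, standard error 0.2703, edgeR adjusted p = 0.000481). All 3 were lower in every cuprizone library than in any control library, and so was Cnpy1 (log2 fold change -2.33, edgeR adjusted p = 0.000376).

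**Figure D5:**
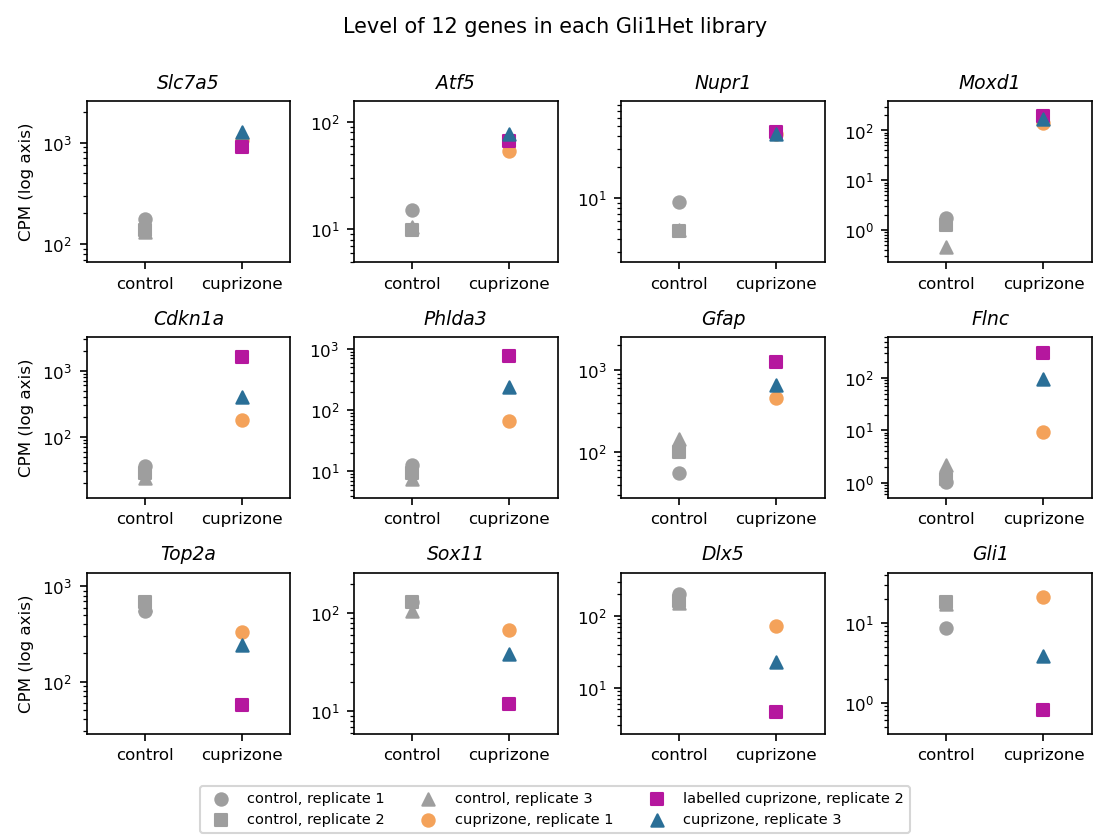
CPM on a log axis of 12 genes in the 3 control (grey) and 3 cuprizone libraries, with 1 symbol for each library. The top row (Slc7a5, Atf5, Nupr1 and Moxd1) rose alike in the 3 cuprizone libraries, whereas in the other rows the library labelled replicate 2 (purple square) lies farthest from the controls.

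Targets of p53, the transcription factor of DNA damage and other stress, rose in graded steps. Of 28 targets, 18 were higher and 2 were lower, with a median log2 fold change of 1.60. The list median was 0.56 in replicate 1, 2.53 in the library labelled replicate 2 and 1.116 in replicate 3, and the library labelled replicate 2 departed most from the controls for 25 of the 28. Cdkn1a, which encodes the cell cycle inhibitor p21 (chromosome 17, 29090976 to 29100727 on the plus strand). was was at 36.5, 28.4 and 24.01 CPM in the control libraries and 181, 1612 and 407 CPM in cuprizone replicates 1, 2 and 3 (log2 fold change 4.63, standard error 0.644, edgeR adjusted p = 0.000992). Phlda3, an inhibitor of the kinase AKT, was at 12.7, 9.23 and 7.39 CPM in the control libraries and 67.1, 781 and 243 CPM in cuprizone replicates 1, 2 and 3 (log2 fold change 5.24, standard error 0.705, edgeR adjusted p = 0.000874). Both were higher in all 3 cuprizone libraries than in any control, with the order replicate 2, 3 and 1. Aen, a nuclease of apoptosis, was at 40.9, 36.4 and 41.5 CPM in the control libraries and 82.4, 141 and 92.9 CPM in cuprizone replicates 1, 2 and 3 (log2 fold change 1.41, standard error 0.1796, edgeR adjusted p = 0.000668). Pmaip1, which encodes the death protein NOXA, had 1 count over the 3 control libraries and 2062 over the 3 cuprizone libraries, a ratio of the summed CPM of 2267 (exact 95% counting interval 406 to 89578), of which nearly all came from 1 library, since its level was 0.1301, 65.8 and 3.45 CPM in cuprizone replicates 1, 2 and 3. Mdm2, the ligase that degrades p53, was at 126, 126 and 129 CPM in the control libraries and 123, 916 and 166 CPM in cuprizone replicates 1, 2 and 3 (log2 fold change 1.66, standard error 0.565, edgeR adjusted p = 0.0407). It was raised in that library, lay within the control range or a little beside it in the others, and was not called without it (edgeR adjusted p = 0.303), nor without any of the 3 control libraries. Of the whole list, 17 were called higher without the library labelled replicate 2, and the number lay between 14 and 23 over the fits that left out a Gli1Het library. Among 24 genes of cell death, 6 were higher and 2 were lower, against 18.8% and 15.3% of all genes tested. Bbc3, which encodes the death protein PUMA, was at 16, 15.8 and 12.3 against 27.2, 91.5 and 45.9 CPM (log2 fold change 1.91, standard error 0.349, edgeR adjusted p = 0.00323). Tnfrsf12a, the receptor of TWEAK, was at 3.35, 4.24 and 3.61 against 6.701, 286 and 84.6 CPM (log2 fold change 5.07, standard error 0.948, edgeR adjusted p = 0.00354).

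Genes of reactive glia and of wound healing rose by more than the stress response in the median, and unevenly. Of 31 tested, 26 were higher and 1 was lower, with a median log2 fold change of 2.91, and in all 31 the library labelled replicate 2 departed most from the controls. The study had picked Anxa3, Flnc, Gpnmb and Plaur of this list as higher in Gli1Het than Gli1Null NSCs on cuprizone. Its count and median thus rest in part on genes chosen with these libraries. The list median was 1.08 in replicate 1, 3.75 in the library labelled replicate 2 and 2.79 in replicate 3. Gfap, the glial intermediate filament, was at 55.9, 102 and 146 CPM in the control libraries and 452, 1254 and 651 CPM in cuprizone replicates 1, 2 and 3 (log2 fold change 2.96, standard error 0.394, edgeR adjusted p = 0.000812). Vim, another intermediate filament, was at 195, 174 and 169 CPM in the control libraries and 286, 1392 and 664 CPM in cuprizone replicates 1, 2 and 3 (log2 fold change 2.12, standard error 0.401, edgeR adjusted p = 0.00374). Anxa3, an annexin that binds membranes, was at 0.80, 0.249 and 0.424 CPM in the control libraries and 11.1, 269 and 107 CPM in cuprizone replicates 1, 2 and 3 (log2 fold change 8.15, standard error 1.09, edgeR adjusted p = 0.000815), far apart among the cuprizone libraries. Gpnmb, a lysosomal glycoprotein, was the even one of the group at 1.45, 0.624 and 2.37 CPM in the control libraries and 20.7, 24.9 and 18.9 CPM in cuprizone replicates 1, 2 and 3 (log2 fold change 3.85, standard error 0.396, edgeR adjusted p = 0.000266). Tagln2, an actin-binding protein, was at 18.7, 15.2 and 20.97 against 87.7, 362 and 194 CPM (log2 fold change 3.55, standard error 0.396, edgeR adjusted p = 0.000373). Plaur, the receptor of urokinase, was at 0.291, 0.208 and 0.0354 against 0.651, 7.69 and 2.39 CPM (log2 fold change 4.45, standard error 0.928, edgeR adjusted p = 0.00572). Lcn2, a siderophore-binding protein of inflammation, had 1 count over the 3 control libraries and 792 over the 3 cuprizone libraries, a ratio of the summed CPM of 871 (exact 95% counting interval 156 to 34433), and was at 0, 25.6 and 0.774 CPM in the 3 cuprizone libraries, so that its rise is that of a single library (edgeR adjusted p = 0.135 without it, and not called without any of the controls). Between 19 and 26 members were called higher when 1 Gli1Het library was left out, and 20 without the library labelled replicate 2.

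Genes of the cytoskeleton and adhesion of spreading cells and targets of YAP, a transcriptional coactivator that responds to stretch, rose too. Of 27 cytoskeletal and adhesion genes, 17 were higher and 2 were lower (median log2 fold change 0.95). Ahnak2, Arhgap22 and Flnc of this list were picked by the study from the same comparison of genotypes on cuprizone. Flnc, the actin crosslinker filamin C, was at 1.02, 1.16 and 2.16 CPM in the control libraries and 9.17, 305 and 94.5 CPM in cuprizone replicates 1, 2 and 3 (log2 fold change 6.51, standard error 1.01, edgeR adjusted p = 0.00158). Itga5, the fibronectin receptor chain, was at 1.89, 1.33 and 1.77 against 5.73, 29.96 and 25.8 CPM (log2 fold change 3.63, standard error 0.5096, edgeR adjusted p = 0.00104). Lmna, the gene of nuclear lamin A, was at 19.6, 25.4 and 26.1 against 56.7, 193 and 95.9 CPM (log2 fold change 2.29, standard error 0.339, edgeR adjusted p = 0.00132). All 3 were again highest in the library labelled replicate 2 and lowest among the cuprizone libraries in replicate 1. Of 17 YAP and TEAD targets, 10 were higher and 1 was lower. Ajuba, a scaffold that holds back the Hippo kinases, was at 8.0, 8.02 and 7.64 CPM in the control libraries and 27.8, 51.96 and 46.99 CPM in cuprizone replicates 1, 2 and 3 (log2 fold change 2.42, standard error 0.217, edgeR adjusted p = 0.000101). Cyr61, a secreted matrix protein, was at 62.6, 57.8 and 67.2 against 254, 1394 and 487 CPM (log2 fold change 3.51, standard error 0.484, edgeR adjusted p = 0.000953). Ctgf, a matrix protein of the same family, was at 0.218, 0.0832 and 0.0707 against 3.38, 103 and 25.9 CPM (log2 fold change 8.61, standard error 1.32, edgeR adjusted p = 0.00153).

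Pathways of TGF-beta and insulin-like growth factors moved in part. In the TGF-beta pathway, 8 of 19 genes were higher and 1 was lower, against 18.8% and 15.3% of all genes tested. Thbs1, which releases TGF-beta from its latent form, was at 0.145, 0.249 and 0.495 CPM in the control libraries and 7.09, 37.9 and 21.03 CPM in cuprizone replicates 1, 2 and 3 (log2 fold change 6.09, standard error 0.753, edgeR adjusted p = 0.000594). Smad3, which carries the signal to the nucleus, was at 7.05, 9.31 and 10.6 against 21.4, 35.2 and 28.8 CPM (log2 fold change 1.66, standard error 0.218, edgeR adjusted p = 0.000773). Of 13 IGF binding proteins and receptors, 5 were higher and 1 was lower, against the same shares of all genes. Igfbp3, a carrier that keeps IGF from its receptor, was at 0.0727, 0.624 and 1.17 CPM in the control libraries and 26.2, 325 and 237 CPM in cuprizone replicates 1, 2 and 3 (log2 fold change 8.12, standard error 1.01, edgeR adjusted p = 0.000608). Igfbp2 was at 5.75, 13.7 and 11 against 27.7, 162 and 117 CPM (log2 fold change 3.32, standard error 0.537, edgeR adjusted p = 0.00186). Igfbp4 was at 15.1, 14.9 and 9.55 against 56.99, 56.3 and 89.6 CPM (log2 fold change 2.36, standard error 0.228, edgeR adjusted p = 0.000177). Igfbp4 was the even one of these 3 carriers, and Igfbp3 and Igfbp2 were low in replicate 1.

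Cytokine and inflammatory genes rose too. In the interleukin 6 family, 10 of 12 genes tested were higher and 0 were lower, with a median log2 fold change of 1.42, and 4 of the 16 listed were under the filter. Among the ligands, Clcf1, a cytokine of the CNTF group, was at 0.291, 0.166 and 0.389 CPM in the control libraries and 6.701, 74.97 and 31.9 CPM in cuprizone replicates 1, 2 and 3 (log2 fold change 7.03, standard error 0.871, edgeR adjusted p = 0.000596). Among the receptors, Osmr, which binds oncostatin M, was at 0.436, 2.66 and 3.89 CPM in the control libraries and 25.96, 144 and 65.8 CPM in cuprizone replicates 1, 2 and 3 (log2 fold change 5.00, standard error 0.689, edgeR adjusted p = 0.000953). Il6st, the shared signalling chain gp130, was at 49.5, 63.2 and 79.4 against 131, 176 and 151 CPM (log2 fold change 1.25, standard error 0.1698, edgeR adjusted p = 0.000906). Stat3, the transcription factor below them, was at 100, 111 and 127 against 176, 336 and 233 CPM (log2 fold change 1.14, standard error 0.191, edgeR adjusted p = 0.00221). Ligand, receptors and transducer thus all lay above the controls in every cuprizone library. Of 17 NF-kB targets and chemokines tested, 10 were higher and 0 were lower. Ccl2, the chemokine that draws monocytes, had 3 counts over the 3 control libraries and 3040 over the 3 cuprizone libraries, a ratio of the summed CPM of 1114 (exact 95% counting interval 381 to 5405), and was at 1.95, 90.1 and 18.1 CPM in the cuprizone libraries. Icam1, an adhesion molecule of inflamed cells, was at 0, 0.748 and 0.99 CPM in the control libraries and 5.33, 99.5 and 25.1 CPM in cuprizone replicates 1, 2 and 3 (log2 fold change 6.07, standard error 1.004, edgeR adjusted p = 0.00205). Csf1, the growth factor of microglia, was at 24.9, 35.3 and 51.6 against 66.7, 104 and 74.1 CPM (log2 fold change 1.13, standard error 0.252, edgeR adjusted p = 0.00794). Among immediate early factors, with list medians of 0.42 in replicate 1, 1.72 in the library labelled replicate 2 and 0.32 in replicate 3, 11 of 25 were higher, a number that fell to 6 without the library labelled replicate 2 and to 7 without control replicate 2 or 3. Atf3 was at 4.51, 8.69 and 6.97 against 23.6, 552 and 101 CPM (log2 fold change 5.05, standard error 0.947, edgeR adjusted p = 0.00358). Junb was at 40.9, 23.9 and 32.2 against 81.1, 391 and 121 CPM (log2 fold change 2.62, standard error 0.477, edgeR adjusted p = 0.00316). Myc was at 11.1, 11.1 and 11.5 against 16.5, 144 and 57.1 CPM (log2 fold change 2.69, standard error 0.539, edgeR adjusted p = 0.00480), all transcription factors that cells switch on within minutes of a stimulus. Beside these genes, the summed level of 14 microglia markers was 78.5 to 97.02 CPM in the control libraries and 188, 247 and 169 CPM in cuprizone replicates 1, 2 and 3, with list medians of 1.85 in replicate 1, 1.80 in the library labelled replicate 2 and 0.38 in replicate 3 against the controls, and their part in the cytokine rises was not tested.

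Genes of oxidative, metal and protein stress rose in part. Of 22 Nrf2 targets, 14 were higher and 1 was lower (median log2 fold change 0.84). Hmox1, the enzyme that degrades heme, was at 5.82, 6.03 and 4.99 CPM in the control libraries and 52.7, 269 and 111 CPM in cuprizone replicates 1, 2 and 3 (log2 fold change 4.69, standard error 0.518, edgeR adjusted p = 0.000370). Ephx1, which opens epoxides, was at 4.51, 7.19 and 8.41 CPM in the control libraries and 98.3, 1186 and 489 CPM in cuprizone replicates 1, 2 and 3 (log2 fold change 6.44, standard error 0.739, edgeR adjusted p = 0.000406). Srxn1, which repairs peroxiredoxins, was at 13.5, 15.6 and 15.98 against 32.7, 121 and 59.9 CPM (log2 fold change 2.25, standard error 0.352, edgeR adjusted p = 0.00168). These 3 lay above the controls in every cuprizone library, with Ephx1 the most graded. Cuprizone binds copper, and of 19 genes of copper handling and metallothioneins 8 were higher and 1 was lower, with a median log2 fold change of 0.36. The metallothioneins Mt1, Mt2 and Mt3, which bind copper and zinc, were the largest part of the list by level. Mt1 was at 250.4, 218 and 274 CPM in the control libraries and 471, 1083 and 706 CPM in cuprizone replicates 1, 2 and 3 (log2 fold change 1.61, standard error 0.2505, edgeR adjusted p = 0.00161). Mt2 was at 110.3, 74.1 and 98.8 against 177, 473 and 289 CPM (log2 fold change 1.73, standard error 0.288, edgeR adjusted p = 0.00213). Mt3 was at 113, 144 and 154 against 236, 468 and 372 CPM (log2 fold change 1.39, standard error 0.237, edgeR adjusted p = 0.00235). Ccs, the chaperone that hands copper to superoxide dismutase, was at 29.5, 24.9 and 26.1 against 43.7, 66.1 and 55.7 CPM (log2 fold change 1.04, standard error 0.152, edgeR adjusted p = 0.00124).

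Genes of protein folding rose in part. Of 21 genes of the unfolded protein response of the endoplasmic reticulum, 16 were higher and 0 were lower. Herpud1, a part of the degradation complex of this organelle, was at 117, 99.6 and 96.3 CPM in the control libraries and 218, 267 and 274 CPM in cuprizone replicates 1, 2 and 3 (log2 fold change 1.28, standard error 0.135, edgeR adjusted p = 0.000287). Hspa5, the chaperone BiP, was at 471, 578 and 675 CPM in the control libraries and 943, 4372 and 1236 CPM in cuprizone replicates 1, 2 and 3 (log2 fold change 1.93, standard error 0.455, edgeR adjusted p = 0.0101), with the library labelled replicate 2 far above the other 2. Of 16 heat shock proteins 7 were higher and 2 were lower, with a median log2 fold change of 0.15. The small heat shock proteins Hspb1 (0.655, 0.457 and 0.424 against 2.73, 79.8 and 51.1 CPM, log2 fold change 6.48) and Cryab (9.31, 5.78 and 8.38 against 15.03, 482 and 235 CPM, log2 fold change 4.97) rose steeply outside replicate 1, and Bag3, a cochaperone of the same proteins, was at 10.04, 10.7 and 13.6 against 33.4, 52.1 and 39.1 CPM (log2 fold change 1.86, standard error 0.191, edgeR adjusted p = 0.000266).

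Genes of the cell cycle fell. Of 28 genes of mitosis, 25 were lower and 0 were higher, with a median log2 fold change of -1.43, and all 28 lay under the controls without overlap, where 20.8% of all genes did. The list median was -0.80 in replicate 1, -3.24 in the library labelled replicate 2 and -1.15 in replicate 3. Top2a, the topoisomerase that untangles chromosomes, was at 553, 694 and 645 CPM in the control libraries and 329.6, 56.8 and 241 CPM in cuprizone replicates 1, 2 and 3 (log2 fold change -1.59, standard error 0.433, edgeR adjusted p = 0.0178). Birc5, which encodes survivin, was at 134, 133 and 119 CPM in the control libraries and 68.1, 15.8 and 48.8 CPM in cuprizone replicates 1, 2 and 3 (log2 fold change -1.55, standard error 0.365, edgeR adjusted p = 0.00996). Hmmr, a protein of the spindle, was at 95.6, 119 and 128 against 58.9, 20.04 and 39.7 CPM (log2 fold change -1.54, standard error 0.286, edgeR adjusted p = 0.00347). Cenpe, a kinetochore motor, was at 93.7, 126 and 140 against 65.1, 17.2 and 45.4 CPM (log2 fold change -1.50, standard error 0.347, edgeR adjusted p = 0.00923). Each was lowest in the library labelled replicate 2. Of 27 genes of DNA replication, 18 were lower and 0 were higher. Rrm2, a subunit of ribonucleotide reductase, was at 579, 495 and 446 CPM in the control libraries and 268, 70.8 and 220.2 CPM in cuprizone replicates 1, 2 and 3 (log2 fold change -1.44, standard error 0.348, edgeR adjusted p = 0.0109). Gmnn, the inhibitor of origin licensing, was at 43.6, 39.9 and 33.98 against 21.6, 9.49 and 19.6 CPM (log2 fold change -1.22, standard error 0.243, edgeR adjusted p = 0.00469).

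Genes of activated NSCs, the dividing state of these cells, were mixed. Among 15 genes of activated NSCs and transit amplifying cells, 9 were lower and 3 were higher. Sox4, a transcription factor of progenitors, was at 1904, 1446 and 1273 CPM in the control libraries and 1144, 398 and 656 CPM in cuprizone replicates 1, 2 and 3 (log2 fold change -1.07, standard error 0.294, edgeR adjusted p = 0.0184). The 3 that rose were Ccnd1, the D cyclin that growth factors induce, at 21.1, 19.96 and 15.7 against 44.3, 65.9 and 90.8 CPM (log2 fold change 1.83, standard error 0.223, edgeR adjusted p = 0.000559). Fgfr1, a growth factor receptor, was at 62.1, 106 and 119.5 against 206, 302 and 263 CPM (log2 fold change 1.42, standard error 0.219, edgeR adjusted p = 0.00156). Olig2, a factor of progenitors and oligodendrocyte precursors, was at 38.9, 48.2 and 43.4 against 102, 86.04 and 164 CPM (log2 fold change 1.43, standard error 0.2197, edgeR adjusted p = 0.00156). Ccnd2, the other D cyclin of these cells, went the other way at 3039, 2786 and 2371 against 1864, 450.1 and 1425 CPM (log2 fold change -1.13, standard error 0.366, edgeR adjusted p = 0.0340), and lost its call without control replicate 1 or 2 or cuprizone replicate 3, as Sox4 did without control replicate 1 or cuprizone replicate 3 and Top2a without control replicate 2. Counts of lower genes rested on the control libraries and on replicate 3 more than on the library labelled replicate 2. Mitosis genes called lower were 16, 8 and 15 without control replicates 1, 2 and 3, and 28, 28 and 16 without cuprizone replicates 1, 2 and 3. Replication genes called lower fell to 8 and 7 without control replicates 1 and 2, and activated NSC genes to 3, 2 and 4 without control replicate 1, control replicate 2 and cuprizone replicate 3. The 6 Gli1Het libraries alone gave 0 of 28 mitosis genes with edgeR (of which 24 had an unadjusted p under 0.05) and 22 with DESeq2. In RNA from a sorted pool, fewer dividing cells and less RNA of these genes per cell cannot be told apart, here and for the cell types below.

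Markers of neuroblasts, the young neurons that NSCs produce, fell as well. Of 20 markers, 16 were lower and 0 were higher, with a median log2 fold change of -1.83. Without overlap, 19 of 20 lay under the controls, where 20.8% of all genes tested did. The list median was -0.72 in replicate 1, -4.34 in the library labelled replicate 2 and -2.45 in replicate 3, the widest spread of the lists of falling genes. Dlx5, a homeobox factor of inhibitory neurons (chromosome 6, 6877805 to 6882085 on the minus strand), was at 199.7, 160.1 and 153 CPM in the control libraries and 72.1, 4.58 and 23.1 CPM in cuprizone replicates 1, 2 and 3 (log2 fold change -2.37, standard error 0.6403, edgeR adjusted p = 0.0173). Sox11, a factor of newborn neurons, was at 128, 128 and 106 against 67.1, 11.9 and 38.5 CPM (log2 fold change -1.63, standard error 0.422, edgeR adjusted p = 0.0145). Cd24a, a surface marker of neuroblasts, was at 687, 529 and 502 against 426, 177 and 216 CPM (log2 fold change -1.07, standard error 0.263, edgeR adjusted p = 0.0118). Elavl3, a neuronal RNA-binding protein, was at 124, 92.4 and 91.4 against 56.02, 10.2 and 36.02 CPM (log2 fold change -1.60, standard error 0.42, edgeR adjusted p = 0.0154). All 4 were under every control in all 3 cuprizone libraries. Dcx, the gene of doublecortin and the best known marker of these cells, was at 487, 476 and 402 CPM in the control libraries and 286, 11.5 and 77.4 CPM in cuprizone replicates 1, 2 and 3, with no overlap of the groups but a log2 fold change that did not pass (-1.87, standard error 0.723, edgeR adjusted p = 0.0638). Dlx6os1, a noncoding RNA antisense to Dlx6, was at 964, 1026 and 1094 against 485, 18.04 and 125 CPM (log2 fold change -2.30, standard error 0.76, edgeR adjusted p = 0.0370), and without knowledge of the strand setting its reads and those of Dlx6 may be shared. It lost its call without any control library and without cuprizone replicate 3, and Dlx5 lost its call without replicate 3. The count of 16 fell to 6, 6 and 8 without control replicates 1, 2 and 3 and to 5 without cuprizone replicate 3, and was 19 without replicate 1 and 19 without the library labelled replicate 2. The 6 Gli1Het libraries alone gave 0 with edgeR (of which 11 had an unadjusted p under 0.05) and 8 with DESeq2. Of 13 markers of mature neurons, 2 were lower and 0 were higher, a share near the 15.3% called lower of all genes tested. They were Snap25 at 56.4, 45.6 and 46.6 against 31.2, 18.1 and 21.5 CPM (log2 fold change -1.07, standard error 0.1903, edgeR adjusted p = 0.00280) and Penk (log2 fold change -1.34, edgeR adjusted p = 0.0497, a call lost in 5 of the 6 fits without a Gli1Het library, all but that without cuprizone replicate 3).

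No stem cell marker was called lower, and 8 of 14 rose. The NSC markers were 8 higher and 0 lower of 14 tested (median log2 fold change 0.59). The number called fell to 4 without cuprizone replicate 3 and to 5 without control replicate 2. Sox9, a transcription factor of glia and NSCs, was at 494, 516 and 573 CPM in the control libraries and 724, 852 and 815 CPM in cuprizone replicates 1, 2 and 3 (log2 fold change 0.60, standard error 0.135, edgeR adjusted p = 0.00839). Vcam1, which holds NSCs in their niche, was at 71.1, 104 and 134 against 152, 197 and 222 CPM (log2 fold change 0.88, standard error 0.209, edgeR adjusted p = 0.0102). Slc1a3, the glutamate transporter GLAST, was at 1882, 3174 and 3929.9 against 4679, 5060.3 and 6612 CPM (log2 fold change 0.86, standard error 0.242, edgeR adjusted p = 0.0199). Slc1a3 lost its call without control replicate 2 or cuprizone replicate 3. Nes, the gene of the intermediate filament nestin, was at 68.7, 82.9 and 66.4 against 51.3, 165 and 119 CPM with an edgeR adjusted p of 0.163. Its cuprizone libraries lay on both sides of the controls. Of 20 genes of astrocytes and quiescent stem cells, 3 were higher, Sox21, Mlc1 and Glul, and 0 were lower, and the number rose to 5 without control replicate 3. Mlc1, a membrane protein of astrocyte endfeet, was at 539, 671 and 787 CPM in the control libraries and 1074, 1165 and 1236 CPM in cuprizone replicates 1, 2 and 3 (log2 fold change 0.80, standard error 0.157, edgeR adjusted p = 0.00444). Sox21, a factor of progenitors, was at 124, 149.9 and 163 against 235, 260.1 and 290.4 CPM (log2 fold change 0.84, standard error 0.127, edgeR adjusted p = 0.00138). Glul, glutamine synthetase, was at 251, 286 and 314 against 372, 376 and 478 CPM (log2 fold change 0.53, standard error 0.162, edgeR adjusted p = 0.0285), a call lost without control replicates 1 or 2 or cuprizone replicate 3. S100b, which binds calcium in astrocytes, was at 10.4, 9.23 and 12.6 against 11.7, 17.2 and 15.8 CPM (edgeR adjusted p = 0.122).

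Counts for the signals of the niche stand against 18.8% called higher and 15.3% called lower of all genes tested. In the Hedgehog pathway, 5 of 13 genes were higher and 1 was lower. Of the coreceptors, Gas1 was at 132, 97.4 and 90.6 CPM in the control libraries and 192, 234 and 312 CPM in cuprizone replicates 1, 2 and 3 (log2 fold change 1.21, standard error 0.2097, edgeR adjusted p = 0.00255). Boc was at 15.2, 27.2 and 28.04 against 40.1, 45.2 and 49.7 CPM (log2 fold change 0.93, standard error 0.201, edgeR adjusted p = 0.00665), both above the controls in each cuprizone library. The transducer Smo was at 62.9, 89.97 and 85.8 against 118, 101 and 150 CPM (log2 fold change 0.63, standard error 0.163, edgeR adjusted p = 0.0150). Hhip, which binds the ligand and is a target of the pathway, was at 2.62, 4.78 and 4.14 against 13.3, 7.203 and 13.6 CPM (log2 fold change 1.55, standard error 0.346, edgeR adjusted p = 0.00804). Ptch1, the receptor and also a target, was at 56.9, 98.7 and 101 against 150, 75.5 and 151 CPM and did not pass (edgeR adjusted p = 0.121), lower in the library labelled replicate 2 than in the other cuprizone libraries, as Gli1 was. The count of 5 fell to 3 without control replicate 1 or cuprizone replicate 3, and Smo lost its call in both of these fits. In the BMP pathway 9 of 18 genes were higher and 0 were lower. The inhibitor Nog was at 5.96, 3.95 and 5.48 CPM in the control libraries and 13.5, 23.9 and 21.9 CPM in cuprizone replicates 1, 2 and 3 (log2 fold change 1.95, standard error 0.326, edgeR adjusted p = 0.00215). The inhibitory Smad6 was at 1.82, 3.53 and 3.995 against 8.85, 11.5 and 9.85 CPM (log2 fold change 1.67, standard error 0.294, edgeR adjusted p = 0.00271). The target Id1 was at 11.6, 15.2 and 15.8 against 23.4, 46.6 and 39.3 CPM (log2 fold change 1.36, standard error 0.223, edgeR adjusted p = 0.00199). Ligand antagonist and target thus rose together. In the Notch pathway 5 of 20 genes were higher and 2 were lower, and 8 were higher without the library labelled replicate 2 and 3 without cuprizone replicate 3. Of the targets, Hey1 was at 21.02, 20.8 and 26.98 against 40.5, 84.7 and 82.3 CPM (log2 fold change 1.59, standard error 0.243, edgeR adjusted p = 0.00153). Hes1 was at 13.9, 16.05 and 23.7 against 35.7, 66.9 and 47.9 CPM (log2 fold change 1.48, standard error 0.288, edgeR adjusted p = 0.00420). Of 17 Wnt targets and inhibitors, 1 was higher, Dkk3 (374, 494 and 549.8 against 708, 712 and 846 CPM, log2 fold change 0.68), and 2 were lower, the inhibitor Apcdd1 (33.5, 33.97 and 27.97 against 18.9, 12.3 and 20.3 CPM, log2 fold change -0.90) and Ctnnb1, the gene of beta-catenin (811, 752 and 638 against 626, 312 and 518 CPM, log2 fold change -0.60, a call lost without control replicates 1 or 2 and without the library labelled replicate 2 or replicate 3).

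Some markers of cells other than NSCs differed between the diets as well, where 18.8% of all genes tested were called higher and 15.3% lower. Of 14 ependymal markers, genes of the ciliated cells that line the ventricle, 8 were higher and 1 was lower, and their summed level was 89.6 to 146 CPM in the control libraries and 299, 798 and 339 CPM in cuprizone replicates 1, 2 and 3. Foxj1, the master factor of motile cilia, was at 11.3, 14.01 and 25.8 CPM in the control libraries and 96.3, 363 and 133 CPM in cuprizone replicates 1, 2 and 3 (log2 fold change 3.52, standard error 0.465, edgeR adjusted p = 0.000789). Cfap126, a protein of the cilium base, was at 3.56, 2.16 and 3.96 against 17.4, 28.7 and 16.2 CPM (log2 fold change 2.69, standard error 0.288, edgeR adjusted p = 0.000323). Of 14 microglia markers, 7 were higher and 0 were lower. C1qa, a complement component that defines these cells, was at 1.89, 0.457 and 1.56 against 9.17, 9.102 and 2.18 CPM (log2 fold change 2.42, standard error 0.6395, edgeR adjusted p = 0.0159). The number of microglia markers called was 4, 2 and 4 without control replicates 1, 2 and 3, and C1qa lost its call without control replicate 2. Of 12 pericyte and smooth muscle markers, 5 were higher and 0 were lower, with a summed level of 78.8 to 142 CPM in the control libraries and 181, 308 and 288 CPM in cuprizone replicates 1, 2 and 3, led by Tagln at 3.93, 4.78 and 5.34 against 12.4, 44.1 and 43.4 CPM (log2 fold change 2.82, standard error 0.4303, edgeR adjusted p = 0.00150), and 3 were called without control replicate 1, control replicate 3 or cuprizone replicate 3. Of 11 endothelial markers, 3 were lower and 0 were higher, with a summed level of 25.6 to 30.4 CPM in the control libraries and 12.1, 35.8 and 19.3 CPM in cuprizone replicates 1, 2 and 3, and 1 was called without control replicate 3, cuprizone replicate 1 or cuprizone replicate 3 and none without control replicate 1 or 2. Hemoglobin transcripts, those of red blood cells, were listed at 0 in all 3 cuprizone libraries, and the 209 counts of Hbb-bs in the control libraries, at 0.873, 0.166 and 6.82 CPM, make it at least 63.4-fold lower on cuprizone against a floor of 3 counts over the group, a call that was lost without control replicate 3, where most of these counts lie. Of 10 meningeal and fibroblast markers, 1 was higher, Fn1, which is also a TGF-beta gene, and this share is under that of all genes tested. The part that any of these cells have in the changes of the other lists was not tested.

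In these sorted cells the lists of the oligodendrocyte lineage, the target of cuprizone, are set against 18.8% higher and 15.3% lower of all genes tested. Of 11 markers of oligodendrocyte precursors (OPCs), 4 were higher and 0 were lower. Olig1, a factor of the lineage, was at 22.5, 44.9 and 41.1 CPM in the control libraries and 113, 239.8 and 283 CPM in cuprizone replicates 1, 2 and 3 (log2 fold change 2.55, standard error 0.328, edgeR adjusted p = 0.000705). Cspg4, which encodes the surface protein NG2, was at 1.96, 3.24 and 4.24 against 4.81, 12.2 and 9.22 CPM (log2 fold change 1.46, standard error 0.344, edgeR adjusted p = 0.00989), and Olig2 is given above. The defining receptor Pdgfra was low in both groups at 3.2, 7.03 and 7.74 against 0.911, 4.22 and 0.844 CPM and did not pass (log2 fold change -1.53, edgeR adjusted p = 0.0643). So Olig1 and Olig2 rose in every cuprizone library, while Pdgfra lay within or under the control range. Of the 11 markers, 7 were not called, Pdgfra among them. Olig2 is also on the list of activated NSC genes and Cspg4 on that of pericyte markers. Of 14 myelin markers, 2 were lower and 1 was higher, both shares under those of all genes tested. Their median log2 fold change was still -1.48. The list median was -0.28 in replicate 1, -1.76 in the library labelled replicate 2 and -1.76 in replicate 3. Without overlap, 5 of the 14 lay under the controls, where 20.8% of all genes tested did. Mbp, myelin basic protein, was at 661, 79.2 and 103 CPM in the control libraries and 68.8, 4.22 and 18.6 CPM in cuprizone replicates 1, 2 and 3 (log2 fold change -3.21, standard error 0.996, edgeR adjusted p = 0.0292), a fall in which control replicate 1 stood far above the other controls and which lost its call without that library (edgeR adjusted p = 0.170) and without cuprizone replicate 3. Mag, a myelin glycoprotein, was at 4.0, 1.29 and 1.096 against 0.2602, 1.38 and 0.281 CPM (edgeR adjusted p = 0.0989).

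The largest rises at 5 CPM or more were almost all uneven. Pmaip1, Ccl2, Gdf15, Ctgf, Anxa3 and Igfbp3 are given above. Adm, the vessel-widening peptide adrenomedullin, had 2 counts over the 3 control libraries and 1011 over the 3 cuprizone libraries, a ratio of the summed CPM of 556 (exact 95% counting interval 153 to 4595), with 2.02, 28.3 and 8.23 CPM in the cuprizone libraries. Cdsn, an adhesion protein known from the skin, had 1 count over the 3 control libraries and 1669 over the 3 cuprizone libraries, a ratio of the summed CPM of 1835 (exact 95% counting interval 329 to 72513). Adamts14, a protease that trims procollagen, had 2 counts over the 3 control libraries and 1032 over the 3 cuprizone libraries, a ratio of the summed CPM of 567 (exact 95% counting interval 157 to 4690.3). In all 3 of these genes replicate 1 held the least and the library labelled replicate 2 the most. Scd1, the desaturase that makes oleic acid, was the extreme case at 19.4, 19.7 and 28.96 CPM in the control libraries and 37.9, 1925 and 83.8 CPM in cuprizone replicates 1, 2 and 3 (log2 fold change 4.91, standard error 1.16, edgeR adjusted p = 0.00993), and Fosl1, a factor of AP-1, was at 1.38, 1.87 and 1.63 against 1.56, 91.6 and 19.4 CPM (log2 fold change 4.52, standard error 1.003, edgeR adjusted p = 0.00770). Among the largest falls, Tll1, a metalloprotease, was at 6.11, 6.32 and 4.35 CPM in the control libraries and 1.56, 0.0327 and 0.0703 CPM in cuprizone replicates 1, 2 and 3 (log2 fold change -3.44, standard error 0.856, edgeR adjusted p = 0.0124). Stra6, the retinol transporter, was at 9.31, 7.98 and 5.06 against 0.976, 0.0655 and 1.83 CPM (log2 fold change -3.07, standard error 0.659, edgeR adjusted p = 0.00660). Pcsk1, a prohormone convertase, was at 9.67, 8.94 and 12.7 against 3.19, 0.262 and 0.633 CPM (log2 fold change -3.01, standard error 0.617, edgeR adjusted p = 0.00535). Sphkap, an anchor of protein kinase A, was at 9.09, 8.07 and 8.24 against 2.54, 0.7203 and 0.211 CPM (log2 fold change -2.89, standard error 0.578, edgeR adjusted p = 0.00480). Neurod4, a factor of neuronal differentiation, was at 7.05, 7.07 and 5.34 against 2.602, 0.164 and 0.352 CPM (log2 fold change -2.71, standard error 0.682, edgeR adjusted p = 0.0130). In these falls replicate 1 kept part of its transcripts and the other 2 were lower still, except for Stra6, which was lower in replicate 1 than in replicate 3. Of the genes past 2-fold, 707 higher and 220 lower ones spanned less than 2-fold among the 3 cuprizone libraries, and 355 and 410 spanned more than 4-fold.

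A last set holds genes that the study names from its comparison of Gli1Het with Gli1Null NSCs on cuprizone, a contrast of genotype and not of diet. They were chosen with the Gli1Het cuprizone libraries and are no independent evidence. The values given here are those of cuprizone over control in Gli1Het NSCs. Ahnak2, a large scaffold protein, had 3 counts over the 3 control libraries and 729 over the 3 cuprizone libraries, a ratio of the summed CPM of 267 (exact 95% counting interval 91.05 to 1298). Sytl2, which tethers vesicles, was at 0.0727, 0.125 and 0.212 CPM in the control libraries and 1.82, 17.5 and 10.6 CPM in cuprizone replicates 1, 2 and 3 (log2 fold change 6.04, standard error 0.7803, edgeR adjusted p = 0.000719). Gjd2, which forms gap junctions between neurons, had 1 count over the 3 cuprizone libraries and 62 over the 3 control libraries, a ratio of the summed CPM of 56.4 (exact 95% counting interval 9.75 to 2263), and Dennd1c, an activator of Rab35, was at 2.04, 1.996 and 2.404 against 0.455, 0.0655 and 0.0703 CPM (log2 fold change -3.54, standard error 0.562, edgeR adjusted p = 0.00173). Arhgap22, a regulator of Rac, was at 1.53, 0.541 and 0.212 CPM in the control libraries and 2.34, 20.6 and 5.28 CPM in cuprizone replicates 1, 2 and 3 (log2 fold change 3.75, standard error 0.841, edgeR adjusted p = 0.00804). Bard1, the partner of BRCA1, was at 8.29, 12.3 and 7.85 CPM in the control libraries and 5.14, 4.71 and 5.77 CPM in cuprizone replicates 1, 2 and 3 (log2 fold change -0.87, standard error 0.277, edgeR adjusted p = 0.0324), and its call was lost without control replicate 2, without the library labelled replicate 2 and without replicate 3. Ly6a, a surface protein of endothelium, was at 1.38, 1.25 and 1.87 against 0, 0.131 and 0.141 CPM (log2 fold change -3.90, standard error 0.925, edgeR adjusted p = 0.0103).

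For further lists, the members called higher without the library labelled replicate 2 were 13 of 22 Nrf2 targets, 14 of 21 unfolded protein response genes, 8 of 19 copper genes, 6 of 16 heat shock proteins, 17 of 27 cytoskeletal genes, 10 of 17 YAP targets, 8 of 19 TGF-beta genes, 4 of 13 IGF genes, 8 of 12 interleukin 6 family genes and 8 of 17 NF-kB targets. They were also 13 of 20 tRNA synthetases, 8 of 14 NSC markers, 3 of 20 astrocyte genes, 6 of 13 Hedgehog genes, 10 of 18 BMP genes, 6 of 24 cell death genes, 5 of 14 microglia markers, 4 of 12 pericyte markers, 9 of 14 ependymal markers and 4 of 11 OPC markers. Called lower without it were 28 of 28 mitosis genes, 19 of 27 replication genes, 9 of 15 genes of activated NSCs and 3 of 11 endothelial markers. Over all genes tested, the fit without that library called 2635 higher and 2211 lower. The fit of all libraries called 3306 (18.8%) and 2689 (15.3%). The list counts were not tested against these numbers, so a low count such as 3 of 20 astrocyte genes does not show a rise of the list.

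Sample label numbers fall into a set under 10 and a set over 10, and what they mark is not given in the sources used here. The Gli1Het groups hold both, with control replicates 2 and 3 and cuprizone replicates 2 and 3 in the low set and the first replicates in the other. Within the low set, 2 libraries against 2, edgeR called 1868 genes (1071 higher and 797 lower), of which 1033 higher and 690 lower ones were called in the same direction by the fit of all libraries. The stress response had 23 of 32 genes higher there, the p53 targets 10 of 28 and the wound genes 17 of 31, whereas mitosis genes had 1 and neuroblast markers 6 lower. In the remaining pair, 1 library against 1 and so without a test, the median log2 difference was 1.37 for the stress response, 0.53 for p53 targets, 1.16 for wound genes, -0.71 for mitosis genes and -1.004 for neuroblast markers. Every one of these lists moved in the same direction in both sets, but others did not. In the pair the medians were -0.27 for respiratory chain subunits, -0.19 for ribosomal proteins and -0.29 for proteasome subunits. They were 0.37, 0.64 and 0.39 in the low set. Heat shock proteins were at -0.04 in the pair and 0.24 in the low set, and meningeal and fibroblast markers at -0.94 and 0.31.

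Beside these values stand those of Gli1Null NSCs, whose mice lack both working copies of Gli1 and were given the same diets, and the 2 comparisons share no library. In Gli1Null NSCs edgeR called 594 genes higher and 44 lower on cuprizone (3.62% of those tested, 3.37% higher and 0.250% lower). The stress response list had 26 of 32 members higher there with a median log2 fold change of 1.56, against 30 and 1.73 in Gli1Het NSCs. The p53 targets had a median of 0.215 in Gli1Null and 1.60 in Gli1Het NSCs, the wound genes 0.549 and 2.91, the mitosis genes -0.539 and -1.43, and the neuroblast markers -0.668 and -1.83. Moxd1 had a log2 fold change of 6.74 in Gli1Null and 7.27 in Gli1Het NSCs, and Trim66 of 4.76 and 4.80. The test of the difference itself, the interaction of genotype and diet, called 0 of 17623 genes with edgeR, 1591 of them (9.03%) with an unadjusted p under 0.05, while DESeq2 called 59 and limma with library quality weights 2724. Without cuprizone replicate 1, the library least changed by the diet, edgeR called 1714. No gene is therefore called particular to the Gli1Het response by the fit of all libraries. The smallest interaction adjusted p was shared by Gjd2 and Gpnmb, and the latter's log2 fold change was 3.85 in Gli1Het and 0.4397 in Gli1Null NSCs (edgeR interaction adjusted p = 0.323).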

How the data were processed

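RNA of 12 libraries was sequenced, 6 of them from Gli1Het NSCs. According to the methods and processing notes, the authors ran FastQC 0.11.5 on the reads, used TopHat2 2.1.1 for alignment to mm10 and took the count of each gene from HTSeq 0.11.1, with no strand setting given. The deposited counts are whole numbers, and the share of reads in no gene was 54.5% to 58.4%. The authors also deposited a signal table, the counts divided by the size factors of DESeq2 1.12, from which 100% of the values came out as whole reads (within 0.01), and edgeR on those reads, an alternative added after the data were seen, called 5995 genes as it did on the counts. In the count sheet the gene ID beside 33998 rows was that of another gene, so the ID inside each count cell was used.

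Genes needed a count of 10 by edgeR's filterByExpr rule in the smallest group. The main test was edgeR 4.0.16 (quasi-likelihood, TMM, 1 mean per group, all 12 libraries) in R 4.3.3, with Benjamini-Hochberg adjustment over 17623 genes. The alternatives were DESeq2 1.42.0, limma 3.58.1 with library quality weights, other scaling and filter settings, subsets of the libraries, and leaving out each library. Log2 levels used a prior count of 2, and the model was tested on simulated data. Coordinates are those of GENCODE M21 on mm10. Total counts of 13752801 to 29879800 in the Gli1Het libraries set the precision of low genes. Replicates were samples labelled separately.

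The contrast, the gene lists and the tests were chosen with earlier results of these data known. Other lists also hold genes that the study picked with the Gli1Het cuprizone libraries, such as Clcf1, Igfbp3 and Adm. Genes were named by a rule on rank, which took the largest rises and falls, the smallest adjusted p, the most even and most uneven responses, up to 4 called and 2 abundant members of each list, defining markers of cell types, genes that the study names and the smallest interaction p. Genes outside it are said to be so where named. Some genes are not reported here.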

Additional observations from a re-analysis of the deposited data

Results flagged for a closer look

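In 4 named genes all 3 cuprizone libraries moved one way in Gli1Het NSCs and all 3 moved the other way in Gli1Null NSCs, each against the mean of its own controls. Arhgap22, a regulator of Rac, had a log2 fold change of 3.75 in Gli1Het and -0.99 in Gli1Null NSCs. Bard1, the partner of BRCA1, had -0.87 and 1.31. Apcdd1, a Wnt inhibitor, had -0.90 and 0.29. Flt1, a receptor of VEGF in endothelium, had -2.26 and 1.79. The interaction of genotype and diet was tested with edgeR over 17623 genes and passed in none of these 4 (edgeR adjusted p = 0.543 for each). The Gli1Het calls of Arhgap22 and Apcdd1 were kept without each Gli1Het library in turn, that of Bard1 was lost in the 3 fits named above, and that of Flt1 was lost without any 1 of the 3 control libraries, without cuprizone replicate 1 and without cuprizone replicate 3.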

How the results depend on the processing

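The direction of every list median was kept under the alternative fits, except for 2 lists with 1 call each. The pair of first replicates, given above, is not a fit and is not counted here. The median log2 fold change of interferon-stimulated genes was -0.66 and became 0.62 with limma and quality weights, and it ranged from -1.46 (without the library labelled cuprizone replicate 2) to 1.30 (without control replicate 3) when 1 library was left out. That of meningeal and fibroblast markers was 0.63 and became -0.61 with limma, and it ranged from -0.82 (without the library labelled cuprizone replicate 2) to 1.16 (without control replicate 2). The cause was not tested. Against 5995 genes called on cuprizone in Gli1Het NSCs (3306 higher and 2689 lower), limma with quality weights called 10013 (5109 and 4904), edgeR on the 6 Gli1Het libraries alone 961 (841 and 120), DESeq2 on these 3541 (2145 and 1396), and edgeR on the 4 with label numbers under 10 called 1868 (1071 and 797), the last 3 with fewer libraries. Leaving out 1 library gave 3173 to 8496 genes, 1901 to 4128 higher and 1272 to 4368 lower. For the interaction, where edgeR called 0, DESeq2 called 59, limma 2724, the term for label numbers 1, and leaving out 1 library gave 0 to 1714. In Gli1Null NSCs, 638 calls became 1321 with DESeq2, 4634 with limma, 1124 with the label term, 400 with a replicate block, and 140 to 1888 without 1 library. The deviations of same-numbered Gli1Het libraries from their group means had correlations of 0.12, -0.039 and -0.067 over genes. Those of libraries with unlike numbers ran from -0.17 to 0.20. With 3 libraries in a group these values cannot exclude a pairing, and the main fit used none. The replicate block called 5223 genes in place of 5995. DESeq2 size factors gave 6063 genes and no filter on low counts 5475. For the genes named, 2754 values under an alternative kept their direction and their side of the threshold, 183 lost the call, 19 gained one and 0 changed direction. Depth limits genes near 1 CPM, which is 13.8 to 29.9 reads in these libraries.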

Other observations

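Of 22 genes of cholesterol synthesis tested, 5 were lower and 0 were higher (median log2 fold change -0.16). The share called lower was 22.7%, near the 15.3% of all genes tested. Fdft1, which makes squalene, was at 207, 169 and 173 against 115, 123 and 84.8 CPM (log2 fold change -0.77, standard error 0.145, edgeR adjusted p = 0.00374). It lay under the controls in every cuprizone library. The number was 10 without the library labelled cuprizone replicate 2 and 3 without control replicate 2. Of 24 genes of glycolysis and hypoxia, 11 were higher and 2 were lower, against 18.8% and 15.3% of all genes tested. Slc2a1, the glucose transporter GLUT1, was at 87.4, 114 and 121 against 189, 283 and 295 CPM (log2 fold change 1.25, standard error 0.181, edgeR adjusted p = 0.00123). Pfkfb3, which speeds glycolysis, was at 38.7, 50.1 and 49.96 against 95.2, 131 and 132 CPM (log2 fold change 1.37, standard error 0.171, edgeR adjusted p = 0.000622).

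Of 47 nuclear genes of the respiratory chain 6 were higher, of 74 cytosolic ribosomal proteins 12 were higher, of 31 proteasome subunits 1 was higher, and 0 of these were lower, shares under the 18.8% higher over all genes tested, with median log2 fold changes of 0.15, 0.37 and 0.19. The ribosomal number was 0 without control replicate 2 or 3, 3 without the library labelled cuprizone replicate 2 or without replicate 3, and 21 and 27 without control replicate 1 and cuprizone replicate 1. The respiratory number was 1 without control replicate 2 or 3, 3 and 2 without cuprizone replicates 2 and 3, and 12 without cuprizone replicate 1. Of 21 interferon-stimulated genes 1 was lower and 0 were higher, and the direction of their median depended on the fit.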
